A study of Mus musculus with 4 samples.

Results

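The autophagy machinery was taken as 36 genes that initiate autophagosomes, build them and load them with cargo. Every non-control probe annotated with a RefSeq accession of one of these genes was used, which gave 48 probes among the 20887 genes that the array probes could be matched to. All 36 genes had a probe, and 35 of them had a probe above the background filter. Atg4a was not tested, because its 1 probe was well above background in the APPswe/PS1dE9 channel on 1 array and in the wild-type (WT) channel on 0 arrays. The study compared differentiated neural cultures of APPswe/PS1dE9 embryos with those of WT embryos, both on the C57BL/6 background. APPswe/PS1dE9 mice carry a mutant amyloid precursor protein and a mutant presenilin, both from familial Alzheimer's disease. The promoter that drives the transgenes is not given in the sources used here. Precursor cells from the telencephalon at embryonic day 13 formed neurospheres over 5 days in EGF and FGF2 at 20 ng/ml each. The spheres were then plated on poly-L-lysine and laminin without both factors for 7 days, in the same way for both genotypes. Each of 4 two-colour Agilent arrays paired 1 RNA of either genotype, with APPswe/PS1dE9 in Cy3 on arrays 1 and 2 and in Cy5 on arrays 3 and 4. The design names 4 biological replicates per genotype and does not tell whether each came from its own embryo or litter. The p-values therefore reflect only how these arrays varied, which may be technical. As these are bulk cultures, fewer cells of a type and less RNA per cell cannot be told apart.

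In autophagy, a double membrane closes around cytoplasm, aggregates or organelles and fuses with a lysosome, where the content is degraded. The ULK1 kinase complex starts the process, a class III phosphatidylinositol 3-kinase marks the membrane, and 2 ubiquitin-like conjugation systems attach ATG8 proteins (the LC3 and GABARAP families) to it, where cargo receptors bind. Neurons depend on basal autophagy, and autophagic vacuoles accumulate in neurites in Alzheimer's disease. Much of this pathway is regulated at the level of proteins, which arrays of RNA do not measure.

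Between 47.5% and 59.6% of the 59305 non-control spots passed the scanner's background test in each channel, and 0 were saturated. Of 20628 features tested in limma at an adjusted p of 0.05, 1699 were higher and 471 lower in APPswe/PS1dE9 cultures. With median centring in place of loess the split was 1312 higher and 1313 lower. Neuronal and astrocyte markers were measured in both genotypes (10 of 10 in each list tested), while 14 of 15 tested microglia and macrophage markers were higher in APPswe/PS1dE9 cultures, with a median log2 ratio of 2.07. Of these markers, Cd52, Ctss, Cx3cr1, Tyrobp, Trem2, C1qa, Laptm5 and Tmem119 were above background on at most 2 WT arrays. They passed the filter through the APPswe/PS1dE9 channel alone, so they could hardly be called lower and their ratios rest on dim WT values. Also higher were 6 of 10 astrocyte, 7 of 7 ependymal and choroid plexus, 2 of 10 neuronal, 2 of 8 progenitor and 2 of 4 endothelial markers. Lower were 3 of 10 neuronal, 1 of 8 progenitor and 2 of 7 fibroblast and mural markers, and 0 of 10 oligodendrocyte markers were called. Flt1, of the endothelial markers called, was above background on 0 WT arrays. Lum, of the fibroblast markers called, was above background on 1 APPswe/PS1dE9 array, so each was kept through the other genotype alone. The log2 ratios of Xist, expressed from the inactive X chromosome, were -2.85, -0.41, 3.40 and -0.22 on arrays 1 to 4, so the cultures compared on arrays 1 and 3 differed in this sex-linked transcript.

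No member of the autophagy machinery passed the test: 0 of 35 were higher and 0 of 35 lower, where 8.24% of all features were higher and 2.28% lower. The lowest adjusted p among the members was 0.0768 in limma, for Wipi1. On arrays 2 and 4 alone, whose cultures were closer in Xist, 0 members passed either (limma, lowest adjusted p = 0.438). That fit had 1 residual degree of freedom and no dye term, and fewer of all features passed in it than in the main fit. Its 0 therefore does not decide whether the difference in Xist mattered. Log2 ratios of the main fit, which set APPswe/PS1dE9 cultures over WT cultures, ran from -0.19 (Ulk1) to 0.23 (Wipi1). Of the members, 21 were above 0 and 14 below. The median of the members was 0.02, beside 0.01 over all features. The middle 50% of the members lay between -0.05 and 0.09, and that of all features between -0.08 and 0.12. An absolute log2 ratio above that of Wipi1 was found in 18.8% of all features.

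The intervals of the main fit describe how far these 4 arrays bound the differences, and equivalence of the genotypes was not tested. All 35 members were well above background in both channels on all 4 arrays, and the SE of the fitted ratio had a median of 0.06 (range 0.06 to 0.16). The 95% intervals, which are not adjusted for the number of genes, lay within a 1.5-fold change in either direction for 35 of 35 members. They leave out the difference between dye orientations. In some alternative settings, and for some second probes, an interval went past 1.5-fold. Without adjustment 8 members (22.9%) had a p under 0.05, against 25.6% of all features. Of these, Wipi1, Atg9a, Sqstm1, Gabarapl1 and Map1lc3a were fitted above 0 and Ulk1, Atg3 and Ambra1 below. The ratio had 1 sign on all 4 arrays in 12 members (34.3%), of which 6 were above 0 and 6 below, against 28.7% of all features. In 3 members, Atg9a, Gabarapl1 and Atg3, the 4 APPswe/PS1dE9 levels did not overlap the 4 WT levels, which was the case in 12.5% of all features. Overlap of levels compares cultures across arrays and leaves out their pairing, which the ratios keep.

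**Figure D1:**
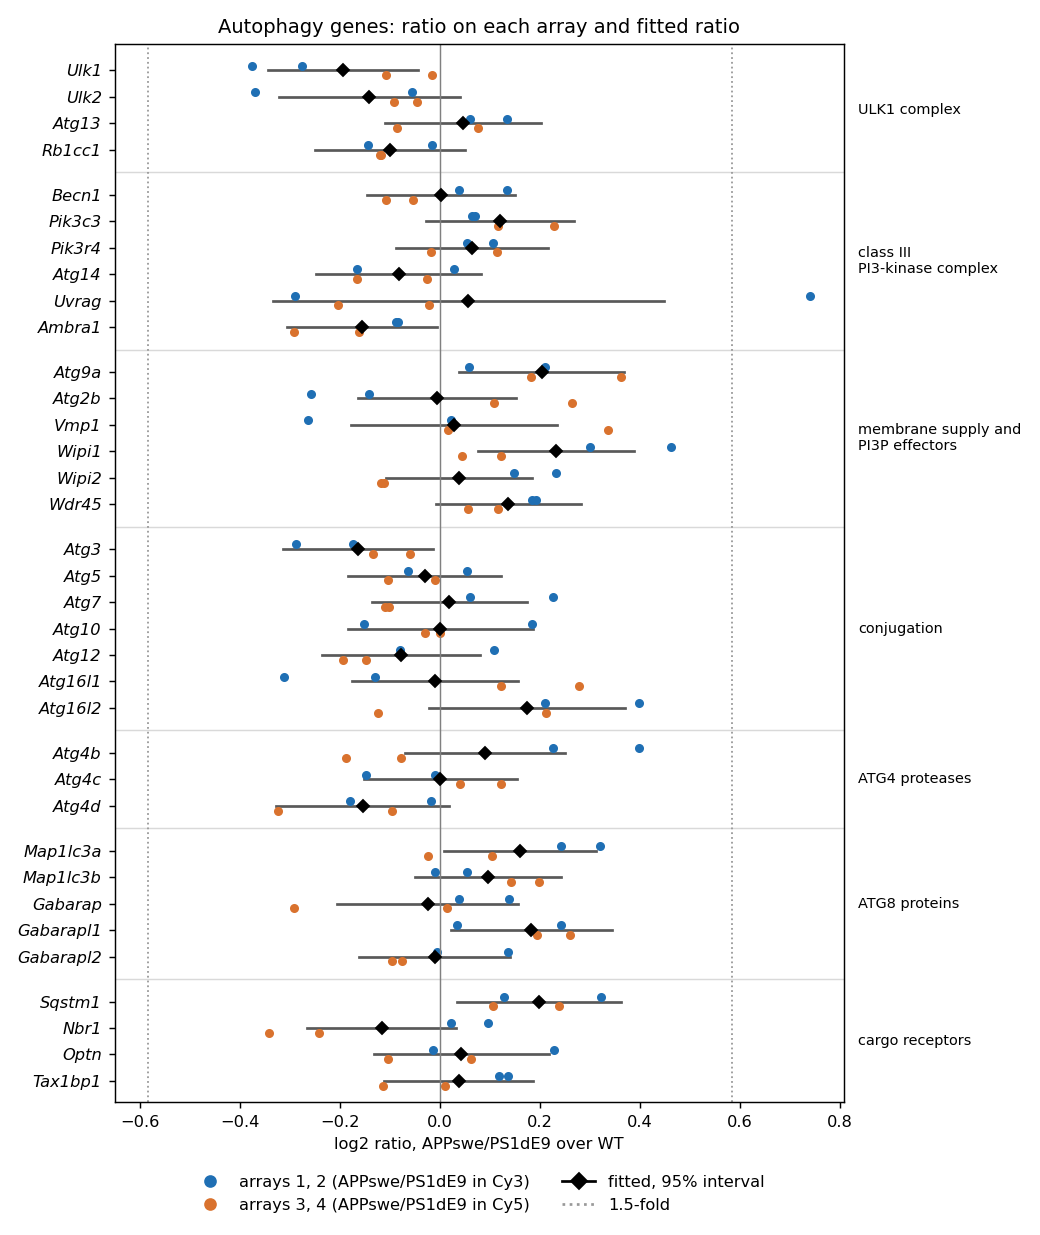
Log2 ratios of APPswe/PS1dE9 over WT (x axis) for the 35 tested autophagy genes, grouped by role. Circles are the 4 arrays, coloured by dye orientation, diamonds are fitted ratios with 95% intervals, and dotted lines mark a 1.5-fold change. All 35 intervals lie inside the dotted lines, and the widest is that of Uvrag, with a ratio of 0.74 on array 2.

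The ULK1 complex, which receives nutrient signals and starts autophagosome formation, had the lowest median of the 7 roles, -0.12 over 4 genes, with 0 genes called. Ulk1, its kinase, had log2 levels of 12.12, 12.22, 12.33 and 12.19 in APPswe/PS1dE9 cultures on arrays 1 to 4 and of 12.40, 12.60, 12.34 and 12.30 in WT. The ratios were -0.28, -0.38, -0.02 and -0.11, all below 0. Across arrays, without the pairing, the levels of the genotypes overlapped. The fitted log2 ratio of Ulk1 was -0.19 ± 0.06 (SE, n = 4 arrays), a ratio of 0.874 with a 95% interval of 0.788 to 0.971 (limma, adjusted p = 0.111). With median centring in place of loess the log2 ratio of Ulk1 was -0.36 and passed the test (limma, adjusted p = 0.0239). In that setting the median of all features was -0.07. Ulk2, the paralogous kinase, was fitted at -0.14 and Rb1cc1, the scaffold also called FIP200, at -0.10. Atg13, a subunit that mTORC1 phosphorylates, was fitted at 0.05.

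The class III phosphatidylinositol 3-kinase complex, which makes the lipid PI3P on the forming membrane, had a median of 0.03 over 6 genes. Becn1 encodes Beclin 1, the scaffold of the complex. Its ratios were 0.13, 0.04, -0.11 and -0.05, above 0 on arrays 1 and 2 and below 0 on arrays 3 and 4. The fitted value was 0.00 ± 0.06 (SE, n = 4 arrays), a ratio of 1.00 with a 95% interval of 0.904 to 1.11. Pik3c3, the catalytic subunit VPS34, was fitted at 0.12 and Pik3r4, its regulatory subunit VPS15, at 0.06. Atg14, which directs the complex to autophagy, was fitted at -0.08, and Ambra1, an activator that binds Beclin 1, at -0.16 with ratios below 0 on all 4 arrays. Uvrag, which replaces Atg14 in the endosomal form of the complex, had the widest interval of the members (log2 -0.34 to 0.45). Its ratios were -0.29, 0.74, -0.20 and -0.02, so the value on array 2 stood apart from the others. Without array 1, Uvrag was fitted at 0.31 and passed the test (limma, adjusted p = 0.0488).

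The genes of membrane supply and PI3P binding had a median of 0.09 over 6 genes, 5 of them above 0. Wipi1, which binds PI3P on the forming membrane, had the highest fitted ratio of the members. Its ratios were 0.46, 0.30, 0.12 and 0.04, all above 0 and higher on arrays 1 and 2 than on arrays 3 and 4. The fitted log2 ratio was 0.23 ± 0.06 (SE, n = 4 arrays), a ratio of 1.17 with a 95% interval of 1.05 to 1.31 (limma, adjusted p = 0.0768). A second, dimmer Wipi1 probe gave 0.13, 1.54, 0.13 and 0.44, with a value on array 2 far from the others, and was fitted at 0.56 ± 0.21. Atg9a, the lipid scramblase of the vesicles that seed the membrane, had ratios of 0.21, 0.06, 0.36 and 0.18 and a fitted value of 0.20 ± 0.07 (limma, adjusted p = 0.124). Its APPswe/PS1dE9 levels (log2 8.20 to 8.53) lay above its WT levels (8.04 to 8.17). Wdr45, another PI3P-binding protein of the WIPI family, was fitted at 0.14, Wipi2 at 0.04, the scramblase Vmp1 at 0.03 and the lipid transfer protein Atg2b at -0.01. The arrays of Wipi1, Atg9a and Uvrag quoted here were chosen after their values were seen.

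The conjugation systems join ATG12 to ATG5 and ATG8 proteins to phosphatidylethanolamine, and their 7 genes had a median of -0.01. Atg5 had ratios of -0.06, 0.05, -0.10 and -0.01. They lay on both sides of 0, and the fitted value was -0.03 ± 0.06 (SE, n = 4 arrays), a ratio of 0.979 with a 95% interval of 0.881 to 1.09. Atg7, the E1-like enzyme of both systems, had ratios of 0.06, 0.23, -0.11 and -0.10, above 0 on arrays 1 and 2 and below on arrays 3 and 4. The fitted value of Atg7 was 0.02 ± 0.06, a ratio of 1.01 with a 95% interval of 0.910 to 1.13. A second, dimmer Atg7 probe stood at 1.24 on array 1 and between 0.00 and 0.04 on the other 3. Atg3, the E2-like enzyme for ATG8 proteins, was fitted at -0.16 with ratios below 0 on all 4 arrays (limma, adjusted p = 0.162). Its APPswe/PS1dE9 levels (log2 10.33 to 10.54) lay below its WT levels (10.59 to 10.68). Atg10, the E2-like enzyme for ATG12, was at 0.00, Atg12 itself at -0.08, Atg16l1, which targets the conjugate to the membrane, at -0.01, and its paralog Atg16l2 at 0.17. A second Atg16l2 probe stood at 1.03 on array 2 and between -0.16 and 0.20 on the others. Of the ATG4 proteases, which process ATG8 proteins and release them from membranes, Atg4b was fitted at 0.09, Atg4c at 0.00 and Atg4d at -0.15.

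The ATG8 family, the proteins that coat the membrane and bind cargo receptors, had the highest median of the roles, 0.10 over 5 genes, again with 0 called. Map1lc3a had log2 levels of 11.71, 11.81, 11.78 and 11.80 in APPswe/PS1dE9 cultures and of 11.47, 11.49, 11.68 and 11.83 in WT. The genotypes overlapped through the WT culture on array 4, and the ratio was above 0 on 3 of 4 arrays (0.24, 0.32, 0.10 and -0.02; fitted 0.16 ± 0.06; limma, adjusted p = 0.177). Map1lc3b encodes LC3B, whose lipid-bound form is the usual marker of autophagosomes. Its levels were 13.71, 13.64, 13.81 and 13.65 in APPswe/PS1dE9 cultures and 13.72, 13.58, 13.61 and 13.51 in WT. The levels overlapped, and the fitted log2 ratio of Map1lc3b was 0.10 ± 0.06 (SE, n = 4 arrays), a ratio of 1.07 with a 95% interval of 0.966 to 1.18.

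Within the GABARAP subfamily, which acts in closure and fusion of autophagosomes, Gabarapl1 was the member whose levels did not overlap between genotypes. They were 15.02, 14.99, 15.01 and 15.00 in APPswe/PS1dE9 cultures and 14.78, 14.96, 14.82 and 14.74 in WT. The ratios of Gabarapl1 were 0.24, 0.03, 0.19 and 0.26, with a fitted value of 0.18 ± 0.07, a ratio of 1.14 with a 95% interval of 1.01 to 1.27 (limma, adjusted p = 0.150). With median centring in place of loess Gabarapl1 was fitted at -0.01, where the median of all features was -0.07. Gabarap had ratios of 0.14, 0.04, -0.29 and 0.01 and a fitted value of -0.02 ± 0.07. Its low value was on array 3, where its second probe was also below 0, at -0.23. Gabarapl2 had ratios of -0.01, 0.14, -0.08 and -0.10 and a fitted value of -0.01 ± 0.06, with no sign shared by all 4 arrays.

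Of the cargo receptors, which link ubiquitinated cargo to ATG8 proteins, 0 of 4 passed the test and the median was 0.04. Sqstm1 encodes p62, a receptor that is itself degraded by autophagy and whose gene is also a target of NRF2. Its log2 levels were 10.54, 10.64, 10.33 and 10.47 in APPswe/PS1dE9 cultures and 10.42, 10.32, 10.22 and 10.23 in WT. On each array the APPswe/PS1dE9 level was the higher one, by 0.13, 0.32, 0.11 and 0.24. Across arrays, without the pairing, the APPswe/PS1dE9 level on array 3 was below the WT level on array 1. The fitted log2 ratio of Sqstm1 was 0.20 ± 0.07 (SE, n = 4 arrays), a ratio of 1.15 with a 95% interval of 1.02 to 1.29 (limma, adjusted p = 0.131). Nbr1, a receptor related to p62, had ratios of 0.10, 0.02, -0.24 and -0.34, above 0 in one dye orientation and below 0 in the other, and was fitted at -0.12 ± 0.06. Optn, a receptor in mitophagy and bacterial clearance, had ratios of 0.23, -0.01, -0.10 and 0.06 and was fitted at 0.04 ± 0.07. Tax1bp1, a receptor for protein aggregates, had ratios of 0.14, 0.12, 0.01 and -0.11 and was likewise fitted at 0.04, ± 0.06.

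**Figure D2:**
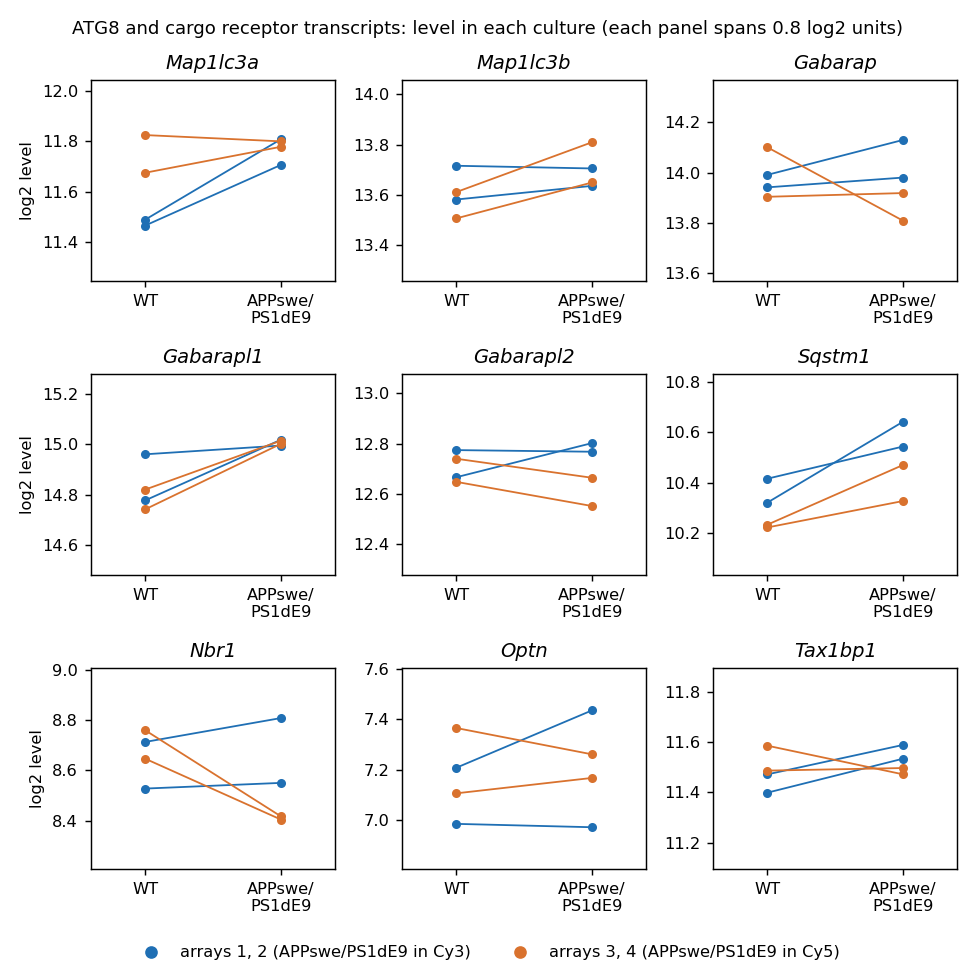
Log2 levels (y axis) of the 5 ATG8 family and 4 cargo receptor transcripts in WT and APPswe/PS1dE9 cultures, with a line joining the cultures of 1 array and colour for the dye orientation. In Sqstm1 and Gabarapl1 all 4 lines slope upward, and in Nbr1 those of arrays 3 and 4 slope downward and those of arrays 1 and 2 slightly upward. Levels are not comparable between genes.

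In many members the sign of the ratio differed between the dye orientations. The median ratio of the members was 0.10 and 0.04 on arrays 1 and 2 and -0.05 and -0.02 on arrays 3 and 4, where the medians of all features lay between -0.01 and 0.03. The means of both orientations had opposite signs in 17 of 35 members (48.6%), against 44.4% of all features. The dye term had an unadjusted p under 0.05 in 5 members, lowest for Atg4b, chosen after its values were seen, whose ratios were 0.23 and 0.40 in one orientation and -0.08 and -0.19 in the other. It passed adjustment in 0 members and in 0 of all features. Across the members, Spearman correlations between arrays of 1 orientation were 0.50 and 0.60 and those between orientations 0.08 to 0.21. Over all features they were 0.55 and 0.49, and 0.11 to 0.27. The SE of the fitted ratios leaves out the difference between orientations, because that difference goes into the dye term. In a fit without the dye term, 0 members passed the test and 4 had an unadjusted p under 0.05.

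**Figure D3:**
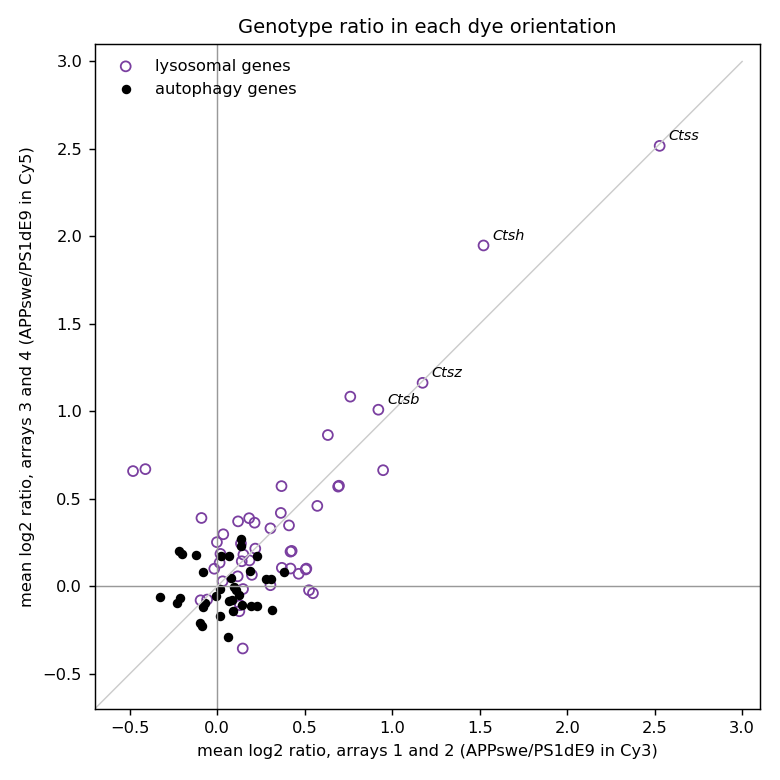
Mean log2 ratio of APPswe/PS1dE9 over WT on arrays 1 and 2 (x axis) against that on arrays 3 and 4 (y axis), for the 35 autophagy genes (filled) and 49 lysosomal genes (open), with the line of equality. The autophagy genes surround 0, with opposite signs in 17 of 35, and Ctss, Ctsh, Ctsz and Ctsb lie above 0 in both orientations.

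Other genes of the pathway were read against the same shares of all features, 8.24% higher and 2.28% lower. Of 36 further autophagy genes tested, 3 were higher and 1 lower, with a median of 0.01. Irgm1, an interferon-inducible GTPase, was higher by a log2 ratio of 1.53 ± 0.08 (limma, adjusted p = 0.000353). Vamp8, a SNARE of the autophagosome's fusion with the lysosome, was higher at 0.49 ± 0.09, and Pink1, the kinase that marks damaged mitochondria, at 0.31 ± 0.06. Dapk1, a death-associated kinase that phosphorylates Beclin 1, was lower at -0.31 ± 0.06. Of 37 regulators around mTORC1, AMPK and TFEB, 2 were higher and 1 lower, with a median of -0.03. These were the transcription factors Foxo1 (0.34 ± 0.06) and Tfe3 (0.30 ± 0.06), and the mTORC1 inhibitor Ddit4, also called REDD1 (-0.31 ± 0.06). Of 16 NRF2 targets, the list nearest to Sqstm1, 3 were higher and 0 lower, with a median of 0.14, where 8.24% of all features were higher. Fth1, the ferritin heavy chain, was at 0.52 ± 0.06, Nfe2l2, NRF2 itself, at 0.50 ± 0.10, and Gclm, a subunit of the enzyme of glutathione synthesis, at 0.27 ± 0.06. Irgm1 passed in each of 16 alternative settings, and the other 9 genes named here lost their call in 4 to 11 of 16. All 9 lost it without array 3 and also without array 4. Pink1, Tfe3 and Gclm lost it without array 1 too, and Dapk1, Ddit4, Tfe3 and Gclm without array 2.

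At the end of the pathway, 20 of 49 genes of a lysosomal list, mostly hydrolases and membrane proteins, were higher and 0 lower. Their median was 0.25, and 8.24% of all features were higher. The cathepsins with the smallest p were Ctss (2.52 ± 0.07, with WT above background on 1 of 4 arrays), Ctsh (1.74 ± 0.06), Ctsb (0.97 ± 0.06) and Ctsz (1.17 ± 0.07), each past the threshold in limma in every alternative setting that gave a value. For Ctss, whose WT probe was mostly not above background, the log2 ratio was 4.00 from the processed signals, so its size depends on the background correction. Among the 20 was also Psap, chosen after its values were seen, with ratios of 0.53 and 0.56 in one dye orientation and -0.01 and -0.06 in the other. The count was between 7 and 12 in 7 of the alternative settings, with 7 without array 4, 9 without array 3 and 7 on arrays 2 and 4 alone. Of the 19 vacuolar ATPase subunits, which acidify the lysosome, 2 were higher (Tcirg1 at 0.63 ± 0.06, Atp6v1g2 at 0.26 ± 0.06) and 0 lower. Tcirg1 lost its call in 2 of 16 alternative settings, without array 4 and on arrays 2 and 4 alone. Atp6v1g2 lost it in 12 of 16, among them processed signals, median centring, no dye term and leaving out any 1 of the 4 arrays. The summed level of the microglia and macrophage markers was 15875 to 20446 in APPswe/PS1dE9 cultures and 10289 to 12543 in WT. That of the astrocyte markers was 195798 to 220633 against 131295 to 171868. For ependyma and choroid plexus it was 9890 to 14380 against 5204 to 6127. Sums of the neuron, oligodendrocyte, progenitor, endothelium, and fibroblast and mural lists overlapped between genotypes. Those of the lysosomal list (326636 to 354981 against 266865 to 323869) and of the vacuolar ATPase list (111209 to 115697 against 107618 to 109460) did not. Sums run over tested genes alone, and the brightest genes weigh most. Where markers were kept through 1 genotype's channel alone, the filter itself favours a higher sum in that genotype. Of the 20 lysosomal genes called, 2 were also microglia and macrophage markers. Above background in WT on all 4 arrays were 19 of the 20. Of the 15 tested microglia and macrophage markers, 0 were lower. Laptm5 was well above background in WT on 0 arrays, Ctss, Tyrobp, Trem2 and Tmem119 on 1, and Cd52, Cx3cr1 and C1qa on 2. Each of these could hardly have been called lower, because the filter kept it through the APPswe/PS1dE9 channel. The part of any cell type in these results was not tested.

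**Figure D4:**
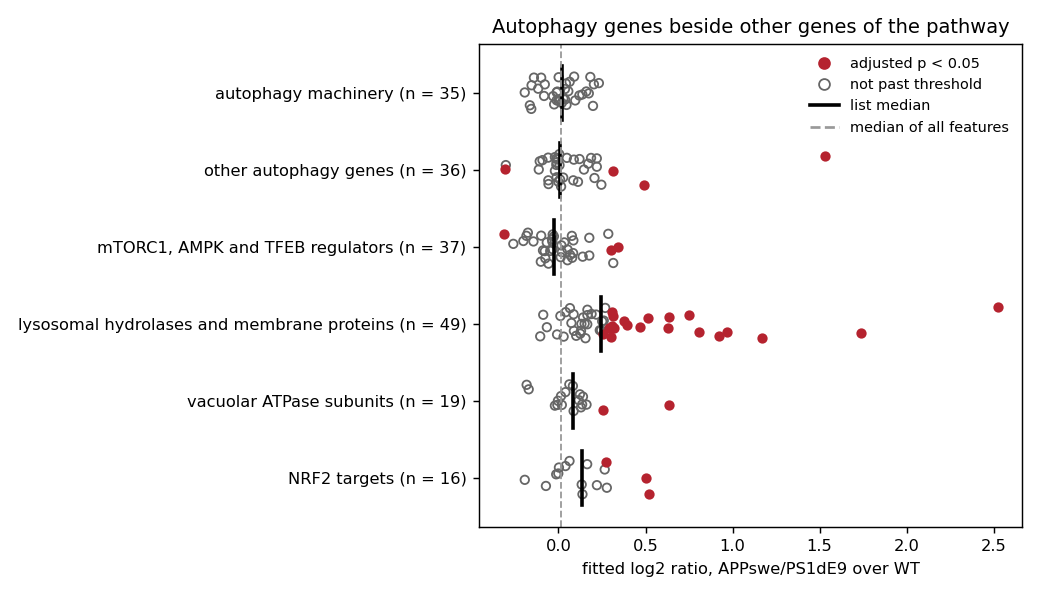
Fitted log2 ratios, APPswe/PS1dE9 over WT (x axis), of the 35 autophagy genes and of 5 further gene lists, with filled points for an adjusted p under 0.05, black bars for list medians and a dashed line for the median of all features. No autophagy gene is filled, while 20 of 49 lysosomal genes are, all above 0.

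The sequence that the transcription factors TFEB and TFE3 bind in lysosomal promoters, an E-box within the CLEAR element, was searched as TCACGTG on both strands (CACGTGA on the other). RefSeq promoter windows (GRCm38.p6) were searched over the 250 bases before the start. Windows were at hand for 30 of the 36 members. The letters were found in 2 of their 36 windows (5.56%), against 1028 of 32851 windows in all (3.13%). They were found in 12 of 44 windows of the lysosomal genes (27.3%), where 40 of the 49 genes had a window. Among the genes called higher, 17 had a window, and the letters were in 5 of their 20 windows (25.0%). Of the other lysosomal genes, 23 had a window, with the letters in 7 of 24 (29.2%). A match is a description of the sequence and does not show that a factor binds there. The stretches around the matches of both members with one, Atg3 and Atg7, are shown beside those of Ctsd and Naglu. These were picked among the lysosomal genes called higher, so their difference in ratio from Atg3 and Atg7 was set by the choice. Lysosomal genes that carry the letters and were not called, such as Lamp1 and Gaa, are not shown. The letters in capitals are the matches.
Atg3, chr16:45158704-45158794, plus strand: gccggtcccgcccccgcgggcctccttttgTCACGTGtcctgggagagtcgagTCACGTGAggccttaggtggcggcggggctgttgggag
Atg7, chr6:114670933-114670999, plus strand: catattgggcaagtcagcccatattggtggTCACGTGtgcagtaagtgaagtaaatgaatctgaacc
Ctsd, chr7:142387889-142388077, minus strand: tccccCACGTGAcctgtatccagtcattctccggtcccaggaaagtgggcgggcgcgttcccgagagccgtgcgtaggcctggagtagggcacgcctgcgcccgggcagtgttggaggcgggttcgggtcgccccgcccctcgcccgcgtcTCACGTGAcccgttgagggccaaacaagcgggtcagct
Naglu, chr11:101069990-101070056, plus strand: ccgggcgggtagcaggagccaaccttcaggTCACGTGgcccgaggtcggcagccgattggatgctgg

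The Atg3 matches begin 95 and 72 bases before the start, those of Ctsd 245 and 99 bases before it, that of Atg7 133 and that of Naglu 74 bases before it. In the second match of Atg3 and of Ctsd the capitals read TCACGTGA, which holds the letters on both strands. Beside these sequences, Atg3 was fitted at -0.16 and Atg7 at 0.02, neither past the threshold. Ctsd, the cathepsin D gene, which like Naglu was chosen after its values were seen, was higher by a log2 ratio of 0.81 ± 0.06 (ratios 0.89, 1.01, 0.71 and 0.61; limma, adjusted p = 0.00113). Naglu, a hydrolase of heparan sulfate, was higher by 0.47 ± 0.07 (ratios 0.32, 0.41, 0.69 and 0.46; limma, adjusted p = 0.0106).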

How the data were processed

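RNA of 4 APPswe/PS1dE9 and 4 WT cultures was measured on 4 two-colour arrays, on 1 slide and in 1 scan per the file headers. The authors deposited median spot and local background intensity values in 2 channels, not normalized, with processed intensity values and, as a log10 value, the ratio Cy5/Cy3 of the latter, from Feature Extraction 11.0.1.1 per the file headers. The authors also deposited a value table of 29350 spots. A comparison with the scanner signals showed that the authors deposited log2 ratios of the processed signals in it, without centring, APPswe/PS1dE9 over WT (slopes on log2 Cy5/Cy3 of -1.00, -1.00, 1.00 and 1.00; column medians -0.0797, -0.155, -0.0373 and -0.0378).

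Median signals were corrected by normexp (offset 50) and loess-normalized within arrays in limma 3.58.1 (R 4.3.3), with control and outlier spots at weight 0 and then left out. This offset shrinks ratios where spots are dim. Replicate spots were averaged by probe. Probes were kept if well above background in 1 genotype's channel on at least 3 of 4 arrays (26954 of 55681 probes; 47 of 48 member probes). The most intense kept probe represented a gene; 24 members had 1 probe and 12 had several kept. Names came by accession from RefSeq (GRCm38.p6), used for names alone because the array annotation uses mm9. Genotype and a dye intercept were fitted with lmFit and eBayes (2 residual, 4.12 prior degrees of freedom), two-sided, with Benjamini-Hochberg adjustment over all features. Levels are per channel, after loess and Aquantile. Values are log2 ratios ± SE (n = 4 arrays), and precision is limited by having 4 arrays. The fit was tested on simulated data.

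Members and lists were chosen with earlier results of these data known. By rule, values of each array were given for members past the threshold and for 13 central genes, and of each other list the 4 genes of smallest p per direction among those past it were named. Array values of other members, second probes included, and of Psap, Ctsd and Naglu were chosen after they were seen. Alternatives covered background correction, normalization, filter, dye term, probe rule, moderation, the value table and leaving out arrays. Arrays 2 and 4, whose cultures did not differ in Xist as arrays 1 and 3 did, were tried alone, chosen after seeing the data.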

Additional observations from a re-analysis of the deposited data

Results flagged for a closer look

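Ulk2, a kinase of the ULK1 complex, had a log2 ratio of -0.37 on replicate 1, while the other 3 arrays lay between -0.09 and -0.05. The gap exceeded Dixon's 95% critical value for 4 samples, a test that chance passes in about 1 in 20 groups, and 51 genes were looked at. Its second probe was at -0.09 on the same array.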

How the results depend on the processing

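The count of autophagy members called was 0 in all settings run except median centring without loess (1 lower, Ulk1) and leaving out replicate 1 (1 higher, Uvrag), so leaving out 1 array gave 0 to 1 higher. In the first of these fits limma gave all features a common variance (infinite prior degrees of freedom), and in the second 1 residual degree of freedom was left and array 2 stood alone in its dye orientation. Members' intervals went past a 1.5-fold change for 1 gene in each of 7 settings: Nbr1 with processed signals and with the value table, Ulk1 with median centring, Wipi1 with the mean over probes, and Uvrag without replicate 3, without replicate 4 and on arrays 2 and 4 alone, besides 3 second probes. The member median moved from 0.02 to -0.089 with median centring, which changed the sign of 12 uncalled members. The median of all features moved with it, from 0.01 to -0.074. In this setting Wipi1, Atg9a, Sqstm1, Map1lc3a and Gabarapl1 were fitted at 0.12, 0.16, 0.07, 0.01 and -0.01. Ulk1, Ambra1 and Atg3 were fitted at -0.36, -0.30 and -0.29. Main counts were 1699 higher and 471 lower features, 32 genes of the pathway lists and 20 lysosomal genes. Processed signals gave 719, 240, 13 and 9, the authors' values 717, 239, 13 and 9, no filter 960, 103, 15 and 12, and arrays 2 and 4 alone 462, 11, 9 and 7. Median centring gave 1313 lower features, 21 pathway and 11 lysosomal genes, and no dye term 259 lower features. Leaving out 1 array gave 372 to 2245 higher and 7 to 511 lower features, 8 to 32 pathway genes and 7 to 21 lysosomal genes, lowest without replicate 4 in each case. The causes were not tested. Every ratio pairs the cultures of 1 array. The replicate number is the array itself, so no block beyond this pairing can be fitted.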
